A study of Homo sapiens with 8 samples.

Results

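Nickel-exposed BEAS-2B cells (Ni-E) were compared with untreated cells (UT) across all genes, to describe what changed in gene expression while the metal was present. The comparison was chosen by group label and used 4 of the 8 RNA-Seq libraries of the study, 2 in each group. BEAS-2B is a virus-immortalised epithelial line from normal human bronchus. Ni-E cells grew for 6 weeks in medium with 100 µM of the soluble salt NiCl2, renewed every 48 h, and UT cells received none. By the labels both libraries of Ni-E belong to experiment 2, and UT carries no number, so the experiment and the exposure cannot be told apart. Counts per library came to 37469371 and 26383920 reads for UT and to 34604295 and 33985930 reads for Ni-E.

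Nickel ions can take the place of iron in enzymes that use oxygen and oxoglutarate, among them the prolyl hydroxylases that mark the hypoxia-inducible factor HIF for destruction. Cells under metal, amino acid or oxidative stress can also activate the integrated stress response, in which phosphorylation of eIF2α slows general translation but favours translation of the transcription factor ATF4. ATF4 raises genes for amino acid synthesis, amino acid transport and tRNA charging.

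DESeq2 tested 14401 genes and called 840 of them (5.83%), at an adjusted P value under 0.05 with at least a 1.5-fold change, which is what "called", "rose" and "fell" mean here. Of these, 543 (3.77% of the genes tested) rose and 297 (2.06%) fell. The genes that rose included GDF15 (19.5-fold), DSP (7.26-fold), CDKN1A (6.18-fold) and ASNS (2.87-fold), and those that fell included TAGLN (2.53-fold lower) and IGFBP3 (3.01-fold lower). More than 2-fold changes were seen in 302 genes that rose and 116 that fell, and more than 4-fold changes in 127 and 21. The median absolute log2 fold change of the called genes was 0.99, with a median standard error of 0.22. Called genes were of low abundance as a rule, with a median level of 2.37 RPKM for those that rose and 3.28 for those that fell, against 7.30 for all genes tested.

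**Figure D1:**
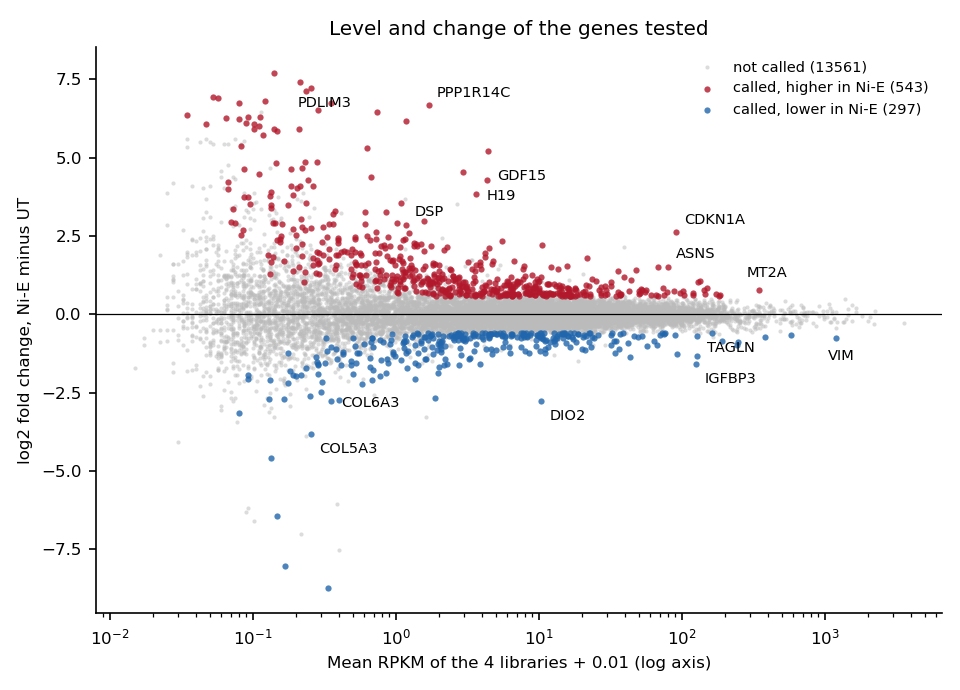
Each point is 1 of the 14401 genes tested, with its mean RPKM over the 2 UT and 2 Ni-E libraries (log axis, 0.01 added) against its DESeq2 log2 fold change, Ni-E minus UT. Red points are the 543 genes that rose and blue points the 297 that fell, and most of the wide changes lie at low levels, with CDKN1A, ASNS, TAGLN and IGFBP3 as exceptions at high levels.

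Replicates had a Pearson's r of 0.990 to 0.994 across 13856 genes, against 0.975 to 0.979 between a UT and an Ni-E library, and component 1 of a principal component analysis (66.1% of the variance) separated the groups. Fold changes ran with transcript GC content (Spearman's rho = 0.393 across 11678 genes), which also ran with the difference between the UT replicates (rho of -0.570). The median GC content was 54.6% in transcripts of genes that rose, 44% in those that fell and 48.1% overall. With the GC and length trends taken out of each library, 707 genes were called, 441 up (3.14% of the genes then tested) and 266 down (1.89%), and 601 of the 840 kept their call and direction. They made up 73.8% of the genes that rose and 67.3% of those that fell, and the part of GC content in each result was otherwise not tested. Calls were also repeated without each library. Of 173 called genes that were list members or named, 71 were called whichever of the 4 libraries was left out.

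**Figure D2:**
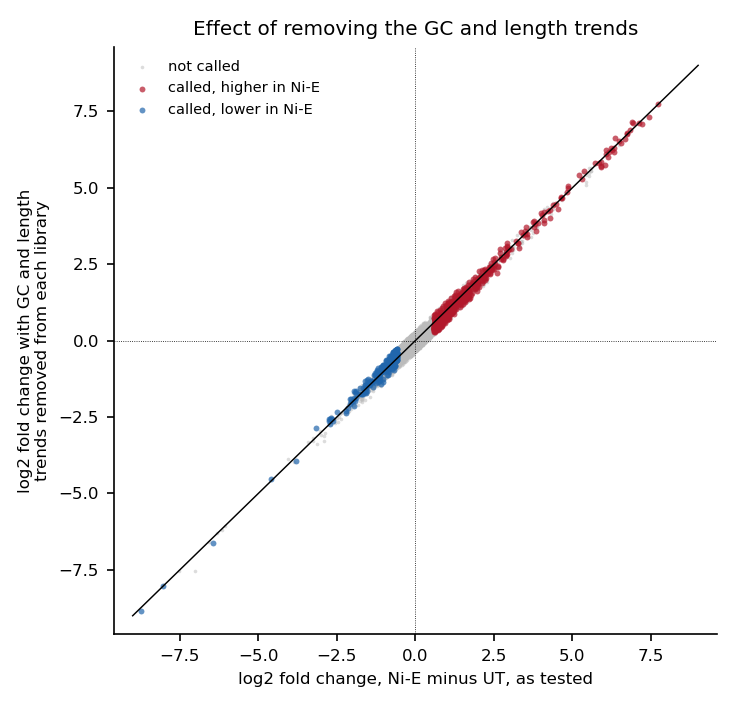
Each point is a gene tested, with the log2 fold change as tested on the horizontal axis and the log2 fold change after removal of GC and length trends on the vertical axis. Called genes (red and blue) stay close to the diagonal line of equal values, and 601 of the 840 remained called.

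The cells had the keratins of a simple epithelium and several mesenchymal transcripts in both groups. KRT8, a keratin of simple epithelia, stood at 220 and 192 RPKM in UT and at 243 and 220 in Ni-E, and its partner KRT18 at 148 and 144 in UT and at 191 and 151 in Ni-E. CDH1, the epithelial cadherin, had at most 0.09 RPKM, while VIM, the mesenchymal filament vimentin, exceeded 800 RPKM in each library. TP63 of basal cells and the fibroblast proteoglycan DCN had no read in the 4 libraries. COL1A1, the main collagen of fibroblasts, had 390 and 338 RPKM in UT and 178 and 337 in Ni-E. Of 5 tested fibroblast markers 2 fell (40%, against 2.06% of all genes tested) and 1 rose (20%, against 3.77%). PDGFRB, a receptor for platelet-derived growth factor, fell from 22.96 and 20.4 RPKM to 10.6 and 15.7 (adjusted P = 4.56e-05), but was not called without either UT library or without Ni-E replicate 1 (adjusted P = 0.420, 0.425 and 0.0574). COL1A2, another collagen chain, fell and the proteoglycan LUM rose, both from under 0.3 RPKM in UT, and each lost its call without at least 2 of the libraries. The part of such markers in the results on matrix and contractile genes was not tested. In bulk RNA, fewer cells of a type and less RNA per cell cannot be told apart. Against 5.83% of all genes tested, DESeq2 called no marker of airway cell subtypes (5 tested), leukocytes and endothelium (3 tested) or urothelium (2 tested). edgeR called 1, and of these markers NGFR alone had an unadjusted DESeq2 P value under 0.05.

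The integrated stress response had the highest share of members that rose among the lists with 5 or more tested. Of 41 list members tested, 21 rose (51.2%, against 3.77% of all genes tested), and the median log2 fold change of the list was 0.60, against -0.002 over all genes tested. ATF4 itself (chr22:39916569-39918691, hg19) had 107 and 98.2 RPKM in UT and 177 and 188 in Ni-E, a 1.71-fold rise with an adjusted P value of 1.49e-10. Both Ni-E libraries lay above both UT libraries. ASNS, the enzyme that makes asparagine (chr7:97481429-97501854), rose from 38.9 and 41.3 RPKM to 102 and 136 (log2 fold change 1.52 ± 0.13 (SE), adjusted P = 3.17e-26). TRIB3, a pseudokinase that feeds back on ATF4, rose from 27.7 and 23.5 RPKM to 74.7 and 66.0, and CHAC1, which degrades glutathione, from 8.36 and 7.24 to 24.2 and 23.1. GDF15, a secreted stress cytokine (chr19:18496968-18499986), rose most in the list, from 0.39 and 0.42 RPKM to 10.3 and 6.17 (adjusted P = 3.74e-26).

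The members that rose covered connected steps of amino acid metabolism. All 3 enzymes of serine synthesis rose. PHGDH, the first of them, went from 86.8 and 77.4 RPKM to 153 and 197, PSAT1, the second, from 79.2 and 88.5 to 181 and 189, and PSPH, the last, from 15.3 and 14.1 to 23.2 and 25.1. MTHFD2, a mitochondrial enzyme of one-carbon metabolism, went from 106 and 113 RPKM to 177 and 181. In transsulfuration, which makes cysteine, CBS went from 20.4 and 17.6 RPKM to 46.2 and 57.6 and CTH from 4.80 and 4.43 to 8.78 and 10.1. SLC7A11, which imports cystine, rose with a log2 fold change of 0.94 ± 0.13 (SE). PYCR1 of proline synthesis (0.83 ± 0.11), PCK2 of mitochondrial phosphoenolpyruvate synthesis (0.91 ± 0.14) and SESN2, a brake on mTORC1 (0.97 ± 0.13), rose by similar log2 amounts. Among the aminoacyl-tRNA synthetases, 2 of 20 tested rose (10%, against 3.77% of all genes tested), GARS for glycine and CARS for cysteine. At an adjusted P value under 0.05 alone, 9 of the 20 were higher in Ni-E (45.0%, against 6.11% of all genes tested) and none lower.

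The stress genes of the endoplasmic reticulum were not called. Of 22 tested members of the unfolded protein response, 0 were called by DESeq2 (against 5.83% of all genes tested) or edgeR. At an unadjusted P value under 0.05, 3 were higher and 3 lower. HSPA5, the main chaperone of that compartment, had 191 and 197 RPKM in UT and 201 and 198 in Ni-E. Within the integrated stress response list, DDIT3, the death-linked factor CHOP, had 16.7 and 15.2 RPKM in UT and 13.1 and 14.7 in Ni-E. ATF3, another transcription factor of the response, had 13.7 and 14.4 RPKM in UT and 17.1 and 17.0 in Ni-E (adjusted P = 0.321). PPP1R15A, which reverses eIF2α phosphorylation, had 28.9 and 26.0 RPKM in UT and 33.2 and 29.7 in Ni-E (adjusted P = 0.582). The log2 differences of these 3 genes had standard errors of 0.18, 0.14 and 0.13. With the GC and length trends taken out 16 members were called upward and 1 downward, and ATF4 (log2 fold change 0.57), CARS (0.57), PSPH (0.56), PYCR1 (0.54) and SHMT2 (0.43) were below 1.5-fold. Between 17 and 20 members were called without 1 library, and SHMT2, ALDH1L2, INHBE and NUPR1 were not called without at least 1. NUPR1, a stress-induced nuclear protein, had 1.21 and 0.44 RPKM in UT and 2.02 and 5.02 in Ni-E, with an adjusted P value of 0.614 without Ni-E replicate 2.

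**Figure D3:**
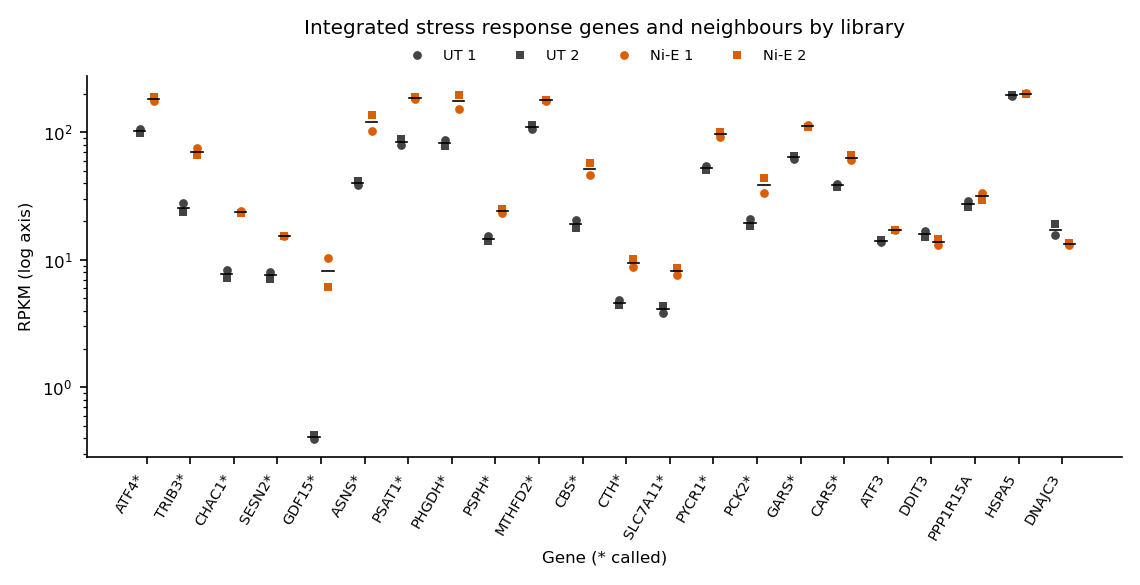
RPKM (log axis) of 20 members of the integrated stress response list and of HSPA5 and DNAJC3 of the unfolded protein response in UT replicates 1 and 2 (grey) and Ni-E replicates 1 and 2 (orange), with lines at the group means. Asterisks mark called genes, in which both orange points lie above both grey points, while ATF3, DDIT3, PPP1R15A, HSPA5 and DNAJC3 were not called.

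Promoter sequences of 2 genes that rose are shown because they hold the ATF4 element in the 250 bases before the start site. They are from RefSeq (GRCh38.p14), 5′ to 3′ in the direction of the gene, with matches to TGATGNAA on either strand in capitals.
ASNS (chr7:97872409-97872658, minus strand): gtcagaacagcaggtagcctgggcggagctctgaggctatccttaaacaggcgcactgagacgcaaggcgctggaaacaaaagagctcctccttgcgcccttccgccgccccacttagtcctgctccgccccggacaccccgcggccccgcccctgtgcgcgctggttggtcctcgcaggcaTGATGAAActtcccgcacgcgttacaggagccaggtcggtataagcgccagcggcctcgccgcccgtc
CHAC1 (chr15:40953221-40953470, plus strand): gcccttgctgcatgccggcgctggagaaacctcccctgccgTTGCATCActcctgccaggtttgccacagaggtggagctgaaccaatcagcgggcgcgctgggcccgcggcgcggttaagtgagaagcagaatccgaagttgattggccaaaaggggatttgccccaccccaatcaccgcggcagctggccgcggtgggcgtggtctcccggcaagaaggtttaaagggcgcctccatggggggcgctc
In the window from 250 bases before to 50 bases after the start, this element was found in 2.68% of 17416 promoters and in 10 of the 34 list members with a promoter sequence. It was found in 3 of 14 members that rose and in 7 of 20 that were not called, a lower share in those that rose. Among all genes that rose 2.04% held it, against 1.71% of all genes tested.

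Metallothioneins, small cysteine-rich proteins that bind zinc and other metals, were measured with other zinc-responsive genes. Of 7 tested members of the metallothionein and zinc list, 2 rose (28.6%, against 3.77% of all genes tested). MT2A (chr16:56642478-56643409) had 292 and 207 RPKM in UT and 397 and 496 in Ni-E, a 1.72-fold rise (adjusted P = 3.25e-05), and MT1E had 29.5 and 17.6 in UT and 52.0 and 59.6 in Ni-E (2.27-fold, adjusted P = 1.60e-06). MT1X stood at 12.98 and 8.32 RPKM in UT and at 14.5 and 15.0 in Ni-E (adjusted P = 0.426). MTF1, the zinc-sensing transcription factor of these genes, had 5.80 and 6.08 RPKM in UT and 5.74 and 5.78 in Ni-E. Metallothionein genes are near-identical copies, and reads with several alignments were removed, so their levels are uncertain. Without UT replicate 2 the log2 fold change of MT2A was 0.55 (adjusted P = 0.0148), and without Ni-E replicate 2 it was 0.63 (adjusted P = 0.0536).

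The promoters of MT2A, which rose, and MT1X, which was not called, are shown for the metal response element that MTF1 binds, from RefSeq (GRCh38.p14). Capitals mark matches to TGCACNC or TGCGCNC on either strand.
MT2A (chr16:56608334-56608583, plus strand): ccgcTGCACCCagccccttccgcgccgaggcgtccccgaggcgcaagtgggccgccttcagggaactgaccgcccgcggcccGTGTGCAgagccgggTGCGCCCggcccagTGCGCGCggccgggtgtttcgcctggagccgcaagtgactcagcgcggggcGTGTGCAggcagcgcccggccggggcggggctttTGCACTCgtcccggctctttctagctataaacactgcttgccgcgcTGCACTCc
MT1X (chr16:56682220-56682469, plus strand): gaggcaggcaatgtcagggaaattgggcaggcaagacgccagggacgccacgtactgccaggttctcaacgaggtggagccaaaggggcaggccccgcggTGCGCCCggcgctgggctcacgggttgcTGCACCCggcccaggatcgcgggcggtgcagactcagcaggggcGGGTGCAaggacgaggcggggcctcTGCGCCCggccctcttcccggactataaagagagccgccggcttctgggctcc
Both held the element several times, 7 and 4 times in the 250 bases shown. The short core is common, and 33.8% of all promoters held at least 1 match.

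HIF target genes moved in part. Of 32 tested members outside glycolysis, 5 rose (15.6%, against 3.77% of all genes tested), with a list median of 0.20. VEGFA, the main angiogenic growth factor (chr6:43739722-43754223), rose from 5.02 and 5.21 RPKM to 13.01 and 12.7 (adjusted P = 1.19e-16), and DDIT4, an inhibitor of mTORC1 that the integrated stress response can also raise, from 11.4 and 7.34 to 34.3 and 33.5. ANGPTL4, an inhibitor of lipoprotein lipase, had 0.31 and 0.25 RPKM in UT and 8.88 and 2.26 in Ni-E, and was not called without UT replicate 2 (adjusted P = 0.0877). Calls of NDRG1 and STC2 were lost without Ni-E replicate 1 (adjusted P = 0.628 and 0.105). The other 27 members tested were not called, among them CA9 and EGLN3, both at low levels. CA9, a carbonic anhydrase, had 0.81 and 0.50 RPKM in UT and 0.62 and 1.58 in Ni-E, and the prolyl hydroxylase EGLN3 0.63 and 0.46 in UT and 0.68 and 0.72 in Ni-E. The histone demethylase KDM3A had 10.8 and 11.6 RPKM in UT and 10.1 and 9.90 in Ni-E, and ADM, a vasodilator peptide, was lower in Ni-E at 144 and 135 RPKM against 191 and 207 (log2 fold change -0.57 ± 0.11 (SE), just short of 1.5-fold). With the GC and length trends taken out ADM had a log2 fold change of -0.80 and was called lower (adjusted P = 5.18e-11).

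In glycolysis and glucose uptake, 3 of 27 tested genes rose (11.1%, against 3.77% of all genes tested), with a list median of 0.15. SLC2A3, a high-affinity glucose transporter, went from 0.04 and 0.10 RPKM to 0.80 and 0.48, and was not called without Ni-E replicate 1 (log2 fold change 2.74, adjusted P = 0.133). SLC2A1, the abundant transporter of the same family, had 38.0 and 33.4 RPKM in UT and 43.3 and 45.2 in Ni-E (adjusted P = 0.143). ALDOC and PDK3, an aldolase and a kinase that slows pyruvate oxidation, also rose but lost their calls without Ni-E replicate 1 (adjusted P = 0.0623 and 0.111). DESeq2 and edgeR called 0 of 37 iron and oxoglutarate dioxygenases, the enzyme family that nickel inhibits, and 0 of 19 iron handling genes. DESeq2 called 5.83% of all genes tested. With the GC and length trends taken out 1 dioxygenase was called higher. At an unadjusted P value under 0.05, 2 dioxygenases were higher and 2 lower, and 5 iron genes were higher and 1 lower. FTH1, the heavy chain of ferritin, had 187 and 182 RPKM in UT and 235 and 268 in Ni-E (adjusted P = 0.00576), and TFRC, the transferrin receptor, 64.7 and 80.3 in UT and 101 and 95.6 in Ni-E (adjusted P = 0.0205), both under 1.5-fold.

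CDKN1A rose, while genes of the cell cycle list were not called. Of 8 tested cyclin-dependent kinase inhibitors, 1 rose and 1 fell (12.5% each, against 3.77% and 2.06% of all genes tested). CDKN1A, which encodes the inhibitor p21 (chr6:36646487-36655116), stood at 25.9 and 22.9 RPKM in UT and 189 and 123 in Ni-E (log2 fold change 2.63 ± 0.33 (SE), adjusted P = 1.01e-12). BTG2, an antiproliferative gene, rose from 2.04 and 2.28 RPKM to 7.40 and 7.22, and DDB2, which recognises ultraviolet damage, from 5.05 and 4.45 to 10.8 and 10.7. FDXR, a mitochondrial reductase, rose from 24.4 and 19.01 RPKM to 45.1 and 39.3, and PERP, a desmosomal membrane protein, from 7.37 and 7.70 to 16.7 and 14.0. These 5 genes were called whichever library was left out. MDM2, a ubiquitin ligase, had 14.9 and 17.7 RPKM in UT and 29.0 and 23.4 in Ni-E, with a log2 fold change of 0.62 that became 0.44 without Ni-E replicate 1 (adjusted P = 0.196). The apoptosis gene BAX had 118 and 99.3 RPKM in UT and 125 and 126 in Ni-E (adjusted P = 0.480).

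Of 45 tested cell cycle genes, 0 were called by DESeq2 (against 5.83% of all genes tested) and 1 rose by edgeR. At an unadjusted P value under 0.05, 7 were higher and 7 lower. TOP2A, the topoisomerase of dividing cells, had 152 and 172 RPKM in UT and 161 and 174 in Ni-E. CCNB1, the mitotic cyclin, had 122 and 125 RPKM in UT and 130 and 131 in Ni-E. MKI67, the proliferation antigen, was uneven between the Ni-E libraries at 10.3 and 21.0 RPKM, around the UT values of 17.8 and 17.1. CDKN2B, an inhibitor of CDK4 and CDK6, fell from 19.3 and 20.4 RPKM to 8.72 and 13.3, although without UT replicate 1 or UT replicate 2 its adjusted P value was 0.251 or 0.475. Among 47 DNA repair genes, 1 fell (2.13%, against 2.06% of all genes tested). This was XRCC2 of homologous recombination, and its call was lost whichever library was left out.

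**Figure D4:**
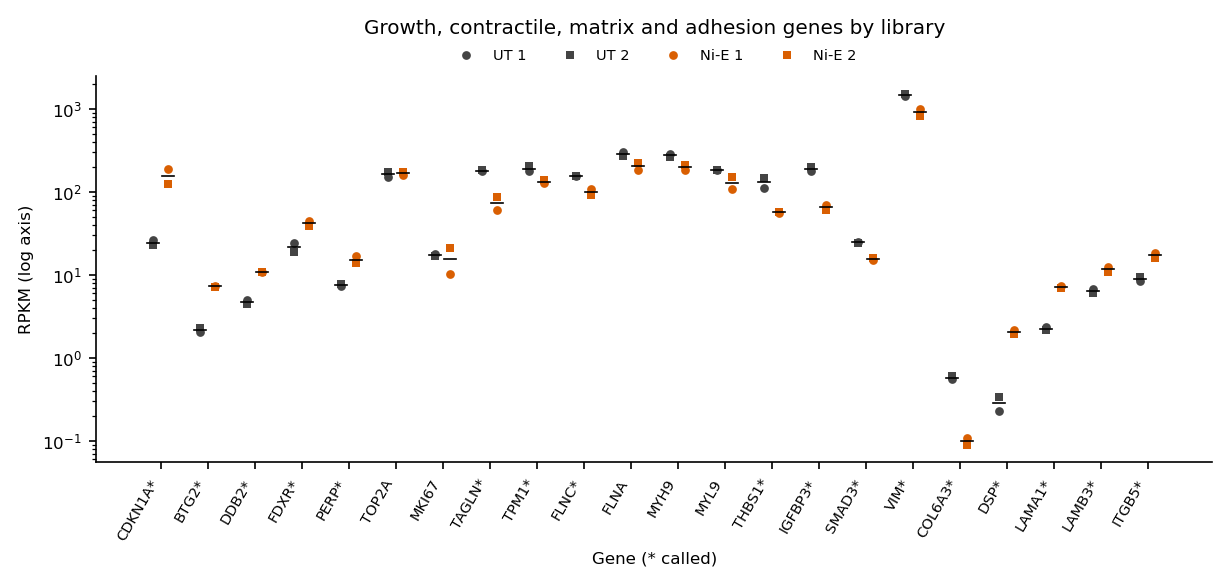
RPKM (log axis) of CDKN1A, BTG2, DDB2, FDXR and PERP, of proliferation genes, and of contractile, matrix and adhesion genes in UT replicates 1 and 2 (grey) and Ni-E replicates 1 and 2 (orange), with lines at the group means and asterisks on called genes. CDKN1A, BTG2 and DSP stand higher in both Ni-E libraries, TAGLN, THBS1, IGFBP3 and COL6A3 stand lower, and TOP2A overlaps between the groups.

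Of 26 tested immediate-early genes and feedback regulators of ERK signalling, 10 rose (38.5%, against 3.77% of all genes tested). The list median was 0.49. ETV4, a transcription factor induced by ERK, rose from 1.72 and 1.86 RPKM to 7.14 and 4.81, DUSP1, a phosphatase of MAP kinases, from 18.6 and 22.5 to 45.7 and 40.9, and IER3, an immediate-early survival gene, from 75.4 and 70.0 to 121 and 121. These 3 were called whichever library was left out. FOS stood at 0.41 and 0.44 RPKM in UT and at 1.48 and 1.44 in Ni-E, and was not called without UT replicate 1 (adjusted P = 0.0700) or without either Ni-E library (0.176 and 0.114). DUSP4, a nuclear phosphatase of ERK, lost its call without Ni-E replicate 1 (log2 fold change 1.20, adjusted P = 0.109). The other 5 were ETV5, EGR1, JUNB, SPRY4 and KLF2, and each lost its call without at least 1 library. KLF2 and SPRY4 rested on Ni-E replicate 1, without which their log2 fold changes were 0.18 and 0.57 (adjusted P = 0.915 and 0.851). FOSL2, a partner of JUN, was lower in Ni-E at 27.5 and 25.9 RPKM against 36.4 and 35.5 (log2 fold change -0.49 ± 0.11 (SE), under 1.5-fold). With the GC and length trends taken out, 7 members of the list were called, and IER3 was under 1.5-fold (log2 fold change 0.47).

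Of 24 tested heat shock genes, which misfolded protein raises, 1 rose and 1 fell (4.17% each, against 3.77% and 2.06% of all genes tested). At an adjusted P value under 0.05 alone 10 were lower in Ni-E (41.7%, against 5.58% of all genes tested), with a list median of -0.22. HSPA1A, the inducible HSP70, had 27.4 and 28.2 RPKM in UT and 19.1 and 20.5 in Ni-E (adjusted P = 0.000243). HSPH1, a partner of HSP70, had 64.8 and 81.6 RPKM in UT and 55.4 and 47.5 in Ni-E, and BAG3, a co-chaperone, 45.1 and 47.1 in UT and 36.7 and 35.5 in Ni-E. HSPA1A and HSPA1B are near-identical copies, so the split of reads between them is uncertain. The member that rose was HSPB8, a small heat shock protein of chaperone-assisted autophagy, from 1.59 and 1.70 RPKM to 7.28 and 7.46 (adjusted P = 7.28e-20). Of the NRF2 list, which holds antioxidant enzymes, 1 of 33 tested genes rose (3.03%, against 3.77% of all genes tested). This was SLC7A11, which is also a member of the integrated stress response list. At an adjusted P value under 0.05 alone, 6 of the 33 were higher (18.2%, against 6.11%) and 0 lower. NQO1, a quinone reductase, had 25.8 and 25.2 RPKM in UT and 39.5 and 36.1 in Ni-E (log2 fold change 0.51 ± 0.12 (SE), under 1.5-fold).

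Of 33 tested contractile and actin-binding genes, 4 fell (12.1%, against 2.06% of all genes tested) and 3 rose (9.09%, against 3.77%). At an adjusted P value under 0.05 alone 16 were lower (48.5%, against 5.58% of all genes tested), and the list median was -0.29. TAGLN, the actin-bundling protein transgelin (chr11:117070040-117075508), fell from 179 and 182 RPKM to 61.1 and 87.3 (log2 fold change -1.34 ± 0.15 (SE), adjusted P = 2.06e-17). TPM1, a tropomyosin, went from 177 and 205 RPKM to 126 and 138, and FLNC, a filamin of muscle, from 155 and 153 to 107 and 91.6. The most abundant members were the actins ACTG1, at 3538 and 2982 RPKM in Ni-E against 3725 and 3916 in UT (adjusted P = 0.0961), and ACTB (adjusted P = 0.172). Members lower by less than 1.5-fold at an adjusted P value under 0.05 included MYH9, non-muscle myosin, at 183 and 213 RPKM against 288 and 266, FLNA, the main filamin, at 184 and 222 against 299 and 272, and MYL9, a myosin light chain, at 108 and 150 against 181 and 183. The members that rose were ACTA2, smooth muscle actin, at 2.72 and 1.71 RPKM against 0.48 and 0.42, FHL1, a LIM protein, at 35.3 and 32.5 against 18.3 and 19.9, and CSRP1, another LIM protein, at 135 and 119 against 76.0 and 83.3. ACTA2 overlaps FAS on the opposite strand, and whether counting used strand was not stated, so their rises cannot be told apart. Without Ni-E replicate 1 neither ACTA2 (adjusted P = 0.136) nor FAS (0.170) was called. TPM1, FLNC, LIMA1 and CSRP1 dropped below 1.5-fold without at least 1 library. TAGLN and FHL1 were called whichever library was left out. With the GC and length trends taken out 7 members fell and 2 rose.

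Genes of the TGF-beta pathway and targets of YAP and TEAD, transcriptional regulators of cell tension, had 4 members each that fell. These were 13.8% and 15.4% of the members tested, against 2.06% of all genes tested. In the first list (29 tested, 1 rose), THBS1, a matrix protein that can activate latent TGF-beta (chr15:39873280-39889668), went from 112 and 147 RPKM to 55.3 and 57.9, and SMAD3, a transducer of the pathway, from 25.0 and 24.4 to 15.3 and 16.1. TGFB2, a ligand, and ID2, a BMP target, also fell but lost their calls without 3 and 4 of the libraries. LTBP1, which binds latent TGF-beta, rose from 0.77 and 0.87 RPKM to 1.73 and 1.94. In the second list (26 tested), IGFBP3, which binds insulin-like growth factors (chr7:45951844-45960871), fell from 177 and 198 RPKM to 68.6 and 61.1 (log2 fold change -1.59 ± 0.12 (SE), adjusted P = 2.14e-38). DKK1, a secreted WNT inhibitor, fell from 435 and 504 RPKM to 348 and 247, and RBMS3 and MYOF fell by 0.77 and 0.61 on the log2 scale. DKK1 and RBMS3 were each not called in 3 of the 4 fits without 1 library and MYOF in 2 of them, and without UT replicate 2 or Ni-E replicate 2 only 1 member of the list was called lower. CYR61, the most used YAP target, had 331 and 401 RPKM in UT and 415 and 354 in Ni-E (adjusted P = 0.962), and CTGF 21.4 and 31.9 in UT and 35.5 and 33.4 in Ni-E (adjusted P = 0.225).

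Matrix genes changed in both directions. Of 35 tested collagens and matrix proteins, 5 fell (14.3%, against 2.06% of all genes tested) and 4 rose (11.4%, against 3.77%). COL6A3 and COL5A3, chains of collagen VI and collagen V, fell from 0.56 and 0.60 RPKM to 0.11 and 0.09 and from 0.43 and 0.48 to 0.02 and 0.05. LOXL1, which crosslinks elastin, rose from 1.82 and 1.72 RPKM to 5.52 and 5.52. These 3 were called whichever library was left out. COL13A1, VCAN and LUM rose from at most 0.13 RPKM, and COL13A1 and VCAN were not called without Ni-E replicate 1 (adjusted P = 0.213 and 0.110), nor LUM without Ni-E replicate 2 (0.583). COL1A2, COL6A1 and COL12A1 also fell. COL1A2, at 0.24 RPKM or less, was not called whichever library was left out (adjusted P between 0.139 and 0.285), COL6A1 was under 1.5-fold without UT replicate 1 (log2 fold change -0.53) and COL12A1 without Ni-E replicate 1 (-0.55). Of 24 tested matrix proteases and inhibitors 2 rose (8.33%, against 3.77% of all genes tested) and 1 fell (4.17%, against 2.06%). MMP24, a membrane-anchored protease, rose from 1.07 and 1.12 RPKM to 2.19 and 2.28, and PLAT, tissue plasminogen activator, from 5.78 and 6.33 to 10.03 and 10.28, but both lost their calls without Ni-E replicate 1 (adjusted P = 0.115 and 0.0626). ADAMTS6, a matrix protease, fell from 1.17 and 1.46 RPKM to 0.41 and 0.33 (adjusted P = 8.84e-11).

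Several genes for attachment to the basement membrane and between cells rose. Of 26 tested integrins and laminins 7 rose (26.9%, against 3.77% of all genes tested), although the list median was 0.05. LAMA1, the alpha chain of laminin-111 (chr18:6941743-7117813), went from 2.34 and 2.15 RPKM to 7.32 and 6.90 (adjusted P = 2.47e-30), LAMB3, a chain of the epithelial laminin-332, from 6.72 and 6.11 to 12.6 and 10.9, and ITGB5, a vitronectin receptor subunit, from 8.46 and 9.55 to 18.4 and 16.2. The calls of LAMA5, ITGA4, ITGB3 and ITGB4 were lost without at least 2 of the libraries. ITGB1, the shared beta subunit, had 153 and 173 RPKM in UT and 140 and 130 in Ni-E (adjusted P = 0.0319, under 1.5-fold).

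Of 9 tested desmosome components 3 rose (33.3%, against 3.77% of all genes tested). DSP, desmoplakin (chr6:7541870-7586946), which ties keratin filaments to the junction, went from 0.23 and 0.34 RPKM to 2.19 and 1.93 (log2 fold change 2.86 ± 0.22 (SE), adjusted P = 1.83e-34). DSC2, a desmosomal cadherin, had 1.19 and 0.99 RPKM in UT and 2.08 and 2.63 in Ni-E, with an adjusted P value of 0.131 without Ni-E replicate 2, and PKP2, a plakophilin, was not called without UT replicate 1 (0.244) or either Ni-E library. Of 30 epithelial genes 4 rose (13.3%, against 3.77% of all genes tested). They were led by PVRL4, the adhesion molecule nectin-4, from 0.25 and 0.27 RPKM to 1.83 and 1.15 (adjusted P = 1.20e-08). The epithelial list median was 0.18, and 0.03 with the GC and length trends taken out. After that removal 4 members were called higher and 1 lower, and edgeR also called 4 higher and 1 lower. KRT17, a stress keratin, had 3.47 and 3.69 RPKM in UT and 10.7 and 23.9 in Ni-E, but its adjusted P value without UT replicate 1 or 2 was 0.143 or 0.186, and the calls of SPINT2 and TJP3 were lost whichever library was left out. VIM (chr10:17270258-17279592) fell from 1417 and 1518 RPKM to 992 and 827 (adjusted P = 5.74e-08). The regulators of mesenchymal state moved apart. ZEB2 fell from 16.9 and 18.8 RPKM to 12.1 and 12.2 but was under 1.5-fold without UT replicate 2 and with the GC and length trends taken out, and ZEB1 rose from 0.99 and 1.25 to 2.10 and 1.70 but was not called whichever library was left out (adjusted P between 0.0732 and 0.596).

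**Figure D5:**
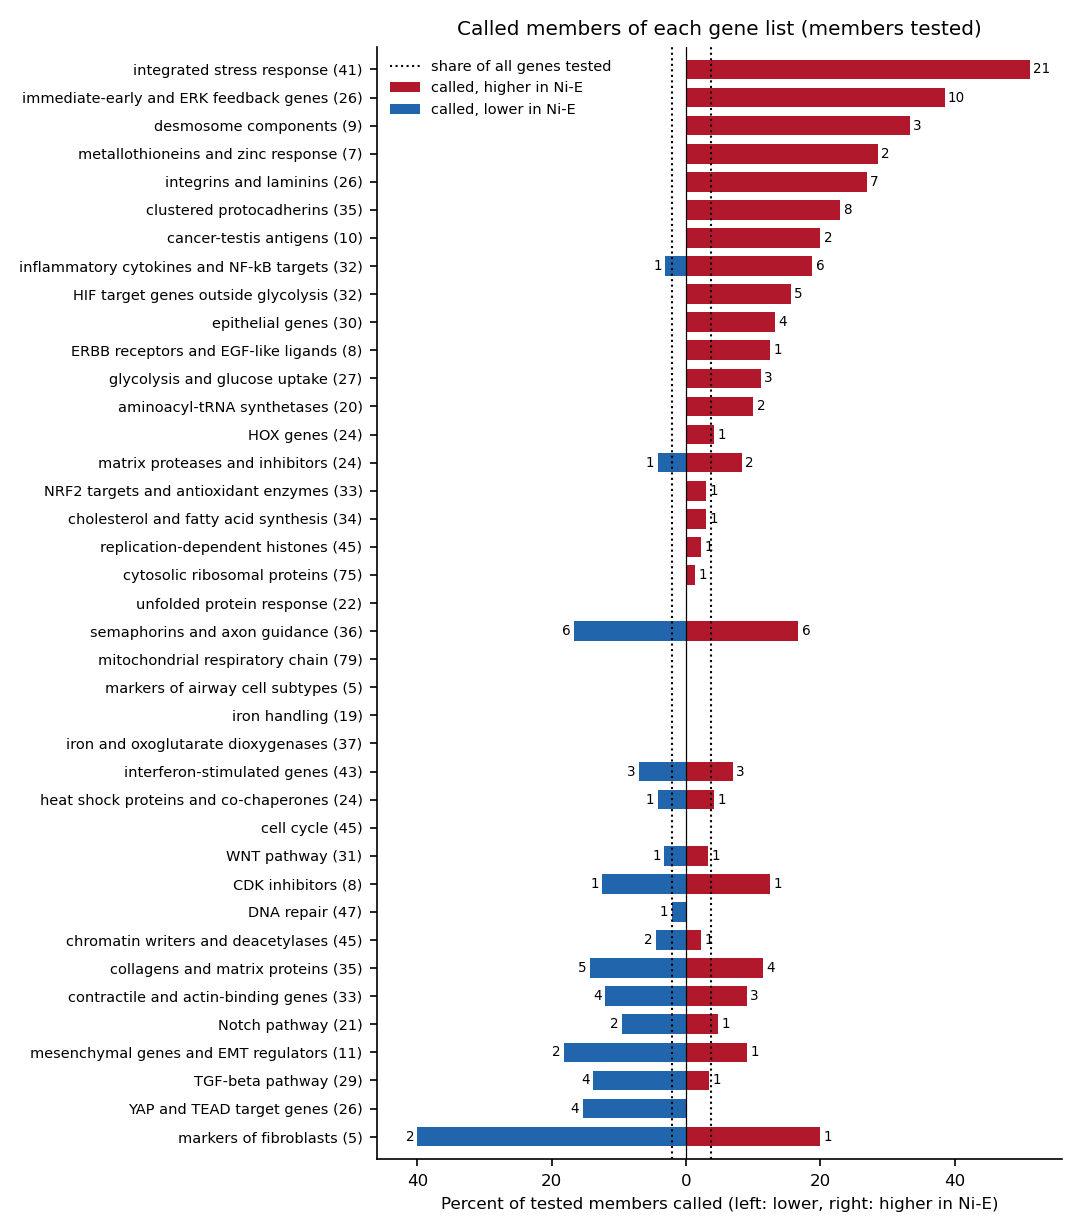
Percent of the tested members of each gene list that rose (red, right) or fell (blue, left) in Ni-E, with the number of members called beside each bar, the number tested in brackets, and dotted lines at the 3.77% and 2.06% of all genes tested that rose and fell. Among the lists drawn, each with 5 or more tested members, the integrated stress response and immediate-early genes have the longest bars to the right and the 5 tested fibroblast markers the longest to the left.

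Inflammatory genes showed 6 that rose (18.8%) and 1 that fell (3.12%) among 32 tested, against 3.77% and 2.06% of all genes tested. IL1A, an alarmin, rose from 0.99 and 0.80 RPKM to 2.56 and 3.14 (adjusted P = 2.05e-07), and BIRC3, an NF-κB target that blocks cell death, fell from 12.8 and 13.6 to 8.39 and 7.95. The rises of IL6, CXCL16, IL32, ICAM1 and CCL20 were not called without Ni-E replicate 2, and CCL20 had a log2 fold change of 0.53 in that fit against 2.18 with all libraries. CXCL8, the neutrophil chemokine interleukin-8, had 136 and 124 RPKM in UT and 173 and 210 in Ni-E (log2 fold change 0.50 ± 0.12 (SE), under 1.5-fold). Of 43 interferon-stimulated genes 3 rose and 3 fell (6.98% each, against 3.77% and 2.06% of all genes tested). The neighbouring paralogs SAMD9 and SAMD9L, antiviral restriction factors, fell from 12.03 and 13.3 RPKM to 5.63 and 7.33 and from 3.50 and 4.01 to 1.49 and 2.20. In contrast TRIM22, another antiviral gene, rose from 1.52 and 1.42 RPKM to 3.23 and 3.86 but was just short of the threshold without Ni-E replicate 2 (adjusted P = 0.0506).

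Axon guidance genes had 6 that rose and 6 that fell among 36 tested (16.7% each, against 3.77% and 2.06% of all genes tested). NTN1, the secreted cue netrin-1, rose from 0.20 and 0.10 RPKM to 1.37 and 1.69 (adjusted P = 6.15e-20). EPHA4, an ephrin receptor, fell from 3.15 and 3.33 RPKM to 1.02 and 1.19, DPYSL3, an intracellular mediator of semaphorin signals, from 3.41 and 3.36 to 1.33 and 1.03, and SEMA3C, a secreted semaphorin, from 10.0 and 10.8 to 6.59 and 7.11. These 4 were called whichever library was left out, and the other 8 were not. With the GC and length trends taken out, 4 axon guidance genes rose and 3 fell, and SEMA3C was under 1.5-fold (log2 fold change -0.49). Clustered protocadherins, neuronal adhesion molecules, had 8 of 35 tested members that rose (22.9%, against 3.77% of all genes tested). Each was of the beta cluster, and the list median was 0.88. PCDHB5 went from 0.66 and 0.57 RPKM to 2.50 and 3.29, PCDHB2 from 0.51 and 0.47 to 2.02 and 2.56 and PCDHB8 from 0.30 and 0.46 to 1.47 and 2.02. The beta genes are close paralogs whose reads can be split between copies, and the other 5 lost their calls without at least 1 library.

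Of 45 tested chromatin writers and deacetylases, 2 fell (4.44%, against 2.06% of all genes tested) and 1 rose (2.22%, against 3.77%). At an adjusted P value under 0.05 alone, 6 were lower (13.3%, against 5.58%) and 2 higher (4.44%, against 6.11%). SETD1B, a methyltransferase of H3K4, fell from 5.11 and 5.03 RPKM to 2.78 and 3.39 (adjusted P = 4.88e-06). The acetyltransferase EP300 also fell but was not called without UT replicate 2 (adjusted P = 0.0764) or Ni-E replicate 1 (0.196), or with the GC and length trends taken out, and CBX2, a Polycomb subunit, rose but was not called without UT replicate 2 or Ni-E replicate 2. Respiratory chain subunits had 0 of 79 members called by DESeq2 (against 5.83% of all genes tested) or edgeR. At an unadjusted P value under 0.05, 4 were higher and 2 lower. Without UT replicate 2, 12 of the subunits and 10 ribosomal proteins were called lower, and the summed RPKM of the respiratory chain list was 12779 and 9250 in the UT libraries against 11005 and 10824 in Ni-E. Ribosomal proteins had 1 of 75 that rose with all libraries (1.33%, against 3.77% of all genes tested). This was RPL13A, which shares reads with a pseudogene and was below 1.5-fold without Ni-E replicate 1 and after removal of the trends.

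Shares in the lists that follow stand against 3.77% of all genes tested that rose and 2.06% that fell. HOXB9, a homeobox gene of body patterning, was the 1 of 24 tested HOX genes that rose (4.17%). It went from 3.67 and 4.40 RPKM to 11.4 and 11.2 (adjusted P = 8.22e-16), and was called whichever library was left out. Of 8 tested ERBB receptors and EGF-like ligands the ligand TGFA rose (12.5%), and of 34 genes of cholesterol and fatty acid synthesis the sterol reductase TM7SF2 (2.94%). Of 31 WNT genes SFRP1, a secreted inhibitor, rose and DKK1 fell (3.23% each). Of 21 Notch genes HES4 rose (4.76%) and LFNG and MAML2 fell (9.52%). Of 45 replication-dependent histones HIST1H1C rose (2.22%), and of 10 tested cancer-testis antigens MAGEA6 and PAGE5 (20%). Apart from HOXB9, each of these calls was lost without at least 1 library.

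Beyond the lists, the largest rises under the naming rule belonged to genes with few or no reads in UT. PPP1R14C, an inhibitor of protein phosphatase 1 (chr6:150464188-150571528), had 2 and 3 reads in UT and 314 and 254 in Ni-E, which gave 0.02 and 0.05 RPKM and 3.68 and 3.01 RPKM. PDLIM3, a LIM protein of muscle, had 2 and 1 reads in UT and 139 and 156 in Ni-E, and the mineralocorticoid receptor NR3C2 had 3 and 4 reads in UT and 94 and 135 in Ni-E. GATM, an enzyme of creatine synthesis, rose from 0.07 and 0.04 RPKM to 1.17 and 1.37, and H19, an imprinted long noncoding RNA, from 0.52 and 0.39 to 7.26 and 6.43. All 5 were called whichever library was left out. PDPN, the membrane mucin podoplanin, had 6 and 0 reads in UT and 112 and 146 in Ni-E, and PAGE5, a cancer-testis antigen, 10 and 0 in UT and 186 and 170 in Ni-E, but neither was called with 1 Ni-E library left out (adjusted P between 0.553 and 0.700).

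A further 21 genes that rose had no read in either UT library, and 3 that fell had none in either Ni-E library. Those that fell were SDCBP2 and the read-throughs RAD51L3-RFFL and UBE2F-SCLY. Those that rose included the read-throughs FKBP1A-SDCBP2 and ATP6V1G2-DDX39B. Read-throughs share exons with their parent genes, so these counts, and that of SDCBP2, are uncertain. JPH1, a junctional membrane protein of muscle, had 52 and 35 reads in Ni-E, at least 27-fold more than 3 reads over both UT libraries would give. CXCR4, a chemokine receptor, had 27 and 35 reads, at least 19.2-fold more by the same floor, and MPZL2, an epithelial adhesion protein, 12 and 35, at least 14.6-fold more. These 3 genes were chosen after their values were seen. The floor covers counting error only.

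Among abundant genes, EEF1A2, a translation elongation factor normally of muscle and neurons (chr20:62119365-62130668), rose from 36.6 and 32.5 RPKM to 100.04 and 105 (log2 fold change 1.51 ± 0.11 (SE), adjusted P = 3.49e-36). PLAC8, a small cysteine-rich protein, fell from 70.2 and 52.8 RPKM to 24.9 and 24.6, OXTR, the oxytocin receptor, from 40.8 and 53.4 to 19.97 and 22.2, RGMB, a BMP co-receptor, from 26.5 and 30.4 to 15.2 and 11.8, and HERC4, a ubiquitin ligase, from 44.4 and 52.99 to 26.3 and 20.8. All 5 were called whichever library was left out. The largest falls included ABI3BP, a matrix protein, from 3.39 and 3.08 RPKM to 0.35 and 0.71 (adjusted P = 8.85e-20), and DIO2, which activates thyroid hormone, from 17.9 and 17.9 to 1.38 and 4.13. DIO2 was not called without UT replicate 1 (adjusted P = 0.160) or UT replicate 2 (0.249). TRIM6-TRIM34 fell from 0.72 and 0.63 RPKM to 0.11 and 0.10, but this read-through shares exons with its parent genes, so its count is uncertain.

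Levels in the washed-out clone (Ni-W, the same exposure followed by more than 6 months without nickel) are given as a description with no test. Of the 21 integrated stress response genes that rose in Ni-E, 16 had both Ni-W libraries below both UT libraries and 2 had both above. The same count over all genes tested was not made, so no share over all genes stands beside these counts. Whether the pattern was particular to this list was not tested. ASNS averaged 17.3 RPKM in Ni-W against 40.1 in UT and 119 in Ni-E (n = 2 each), and ATF4 60.8 against 102 and 182. CDKN1A averaged 52.2 RPKM in Ni-W against 24.4 in UT and 156 in Ni-E. TAGLN averaged 225 RPKM in Ni-W and IGFBP3 511, against 180 and 188 in UT.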

How the data were processed

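RNA-Seq libraries of BEAS-2B cells were grouped by their labels. The authors used STAR 2.4 for alignment to hg19, discarded multi-mapping reads and counted RefSeq genes in BioWardrobe. The deposited counts (25411 genes per library) were tested here, and the deposited RPKM values, which the authors scaled to gene length and mapped reads, are printed as levels. DESeq2 1.42.0 (R 4.3.3) was fitted to the 2 UT and 2 Ni-E libraries, with a two-sided Wald test and Benjamini-Hochberg adjustment. Independent filtering left 14401 genes. A gene was called at an adjusted P value under 0.05 and a change of at least 1.5-fold. With 2 libraries a group, P values rest on a spread shared across genes, and no regrouping of 4 libraries could reach 0.05 for a single gene. The labels call the repeat of each group a duplicate and the study's methods call the 2 biological replicates. A floor of 3 reads was 8.01e-06 to 1.14e-05% of a library.

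The 42 gene lists and the rules were chosen with earlier results of these data known. Named genes are the 12 largest called changes in each direction at a mean normalized count of at least 50 with no overlap between groups, the 8 largest at a mean of at least 20 RPKM, the 3 largest of each list and its first 2 members. Other list members were named after their values were seen. Lists are described by counts and medians, with no set test, and 1 list is not reported here. GC content came from GENCODE transcripts, and its trend and that of length (natural splines, 5 df, from genes averaging 50 reads or more) were removed through normalization factors. Scripts were checked on simulated data. edgeR 4.0.16 and limma 3.58.1 served as alternatives, and figures were drawn with matplotlib 3.10.9.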

Additional observations from a re-analysis of the deposited data

How the results depend on the processing

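With 840 genes called (543 up, 297 down), 1044 were called by edgeR (819 of them shared), 466 by limma on log2(RPKM + 1) (349 up, 117 down) and 636 by limma on log2(RPKM + 0.1) (174 down). An adjusted P value alone gave 1683 genes (880 up, 803 down), and a 2-fold limit 418 (302 up, 116 down). Without 1 library between 356 and 620 genes were called, 210 to 384 up and 146 to 264 down. The fewest were called without Ni-E replicate 1 (356), then without UT replicate 2 (438), Ni-E replicate 2 (497) and UT replicate 1 (620).

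Deviations of same-numbered UT and Ni-E libraries had an r of -0.103 across genes. This r cannot tell whether same-numbered libraries shared a batch. The difference between replicates ran with GC content in opposite directions in UT (rho of -0.570) and in Ni-E (rho of 0.148). With the replicate number as a block, 494 genes were called (304 up, 190 down), of which 488 were shared with the main calls. The block together with removal of the GC and length trends gave 398 (239 up, 159 down). The crossed replicate block, chosen after seeing the data, gave 633. Removal of the trends alone gave 707.

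Of 108 called genes named by rule, no direction reversed in the alternatives that fitted them. All called genes had no overlap between the groups, so a reversal was unlikely from the start. At a mean RPKM of at least 1, 83 of the 108 were fitted. edgeR and the fit of all 8 libraries each left 106 called, the replicate block 92, removal of the trends 95, trends and block together 81, limma on log2(RPKM + 0.1) 85 and on log2(RPKM + 1) 71, and fits without 1 library between 72 and 83. Among the 13 lost on removal of the trends were ATF4, CARS, ASS1, EP300, DNAJB4, TM7SF2, TGFB2 and ZEB2. The smaller UT 2 library limits low genes, and with counts thinned to its total 777 genes were called. The labels place both Ni-E libraries in experiment 2, so the spread between separate exposures was not measured.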
